A study of Rattus norvegicus with 18 samples.

Results

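Cholesterol synthesis, uptake and storage was followed through 37 genes measured on arrays of rat adrenal glands. The genes were chosen by name, from a list of 38 genes under 40 names that included older symbols and role. The choice used no measured value of these arrays, although it was made with earlier results of them known. They fall into 8 mevalonate steps, 11 sterol steps, 4 regulators of synthesis, 5 genes of uptake and the lysosome, 2 genes of ester storage and 7 genes of efflux and transfer. They stood among 20846 gene names tested and 26583 on the array. Srebf1 was not analysed here. Older or other names were used by the array for 3 of them: Sc4mol is now Msmo1, Sc5dl is now Sc5d, and the Npc1 cDNA is listed as Cdig2, which RefSeq gives as a synonym of Npc1.

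The glands came from stroke-prone spontaneously hypertensive rats (SHRSP), spontaneously hypertensive rats (SHR) and normotensive Wistar-Kyoto rats (WKY). Each strain was sampled at 6 weeks and at 3 weeks of age, with 3 biological replicates in each of the 6 groups, named here SHRSP, SHR and WKY at 6 weeks and SHRSP, SHR and WKY at 3 weeks. No group was treated, and each RNA was hybridised to its own one-colour array, 18 in all. The question set by the design is how the adrenal transcriptome of the hypertensive strains differs from that of WKY, and how it changes between the 2 ages. The strains are inbred lines that differ at many loci, so no comparison isolates a single allele. The sex of the rats, and whether a replicate was 1 animal or a pool, are not given in the sources used here, so p-values measure the spread between these samples.

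Steroid-making cells of the adrenal cortex draw on cholesterol from 3 sources: synthesis from acetyl-CoA, uptake of lipoprotein cholesterol, and release from stored cholesteryl ester. The transcription factor SREBP-2, encoded by Srebf2, switches on the synthesis genes when sterol in the endoplasmic reticulum is low, and the Insig proteins hold it in place with its escort Scap when sterol is high. In rodents the adrenal gland takes up much of its cholesterol ester from high-density lipoprotein through the receptor encoded by Scarb1, and efflux through Abca1 is controlled by the liver X receptors, which sense oxidised sterols.

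Levels are given as log2 of the processed array signal relative to the 75th percentile of the same array, so that 0 is the level of that percentile, and differences are log2 differences of such levels with their standard error after ±. Levels of different genes come from different probes and were not compared. A difference was called higher or lower when its Benjamini-Hochberg adjusted p over all 20846 genes was under 0.05 in limma, fitted as 1 model of 6 group means with 3 arrays in each group. Where a second probe of a gene is given, its value and call come from a separate limma fit of all probes that passed the filter. Its p-values were adjusted over those probes. All 37 genes were well above background on all 18 arrays and none was saturated. In bulk tissue, fewer cells of a type and less RNA per cell cannot be told apart. The summed level of 7 adrenal cortex markers ranged from 671.4 to 867.2 times the 75th percentile over the 18 arrays, so the labelled tissue carried its defining transcripts on every array. 1 array stood apart: SHR replicate 2 at 3 weeks had a summed level of liver markers of 93.1, SHR replicate 3 at 3 weeks had 2.59, and the other arrays reached at most 3.24. Without that array, 9 of the 11 calls of SHR against WKY at 3 weeks described below were kept (Dhcr7 and Nsdhl were lost), as were 15 of 17 with age in SHR, 0 of 1 between SHRSP and SHR at 3 weeks, 5 of 9 between the age changes of SHRSP and SHR, and 0 of 2 between those of SHR and WKY. Chromaffin markers, of the adrenal medulla, summed to 118 to 147 in SHRSP, 124 to 147 in SHR and 74.1 to 80.3 in WKY at 6 weeks, and to 136 to 152 in SHRSP, 114 to 118 in SHR and 90.3 to 98.4 in WKY at 3 weeks. The part of RNA from the medulla in the strain differences was not tested.

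The promoters of Insig1 and of the 3 synthesis genes whose age change differed between SHRSP and WKY are shown beside those of 2 genes that were higher in both hypertensive strains at both ages. They are the 250 bases before the gene start in RefSeq's GRCr8 assembly, of the reference rat and not of the strains measured. Capitals mark CCAAT, the box bound by NF-Y, a factor that works together with SREBP at sterol-responsive promoters, or its reverse complement ATTGG. Insig1 lies at chr4:8057770-8058019 (minus strand), Hmgcs1 at chr2:53382054-53382303 (plus strand), Idi1 at chr17:66547525-66547774 (minus strand), Sc4mol at chr16:29746863-29747112 (plus strand), Acat2 at chr1:50100590-50100839 (plus strand) and Dhcr7 at chr1:208444184-208444433 (plus strand).
Insig1: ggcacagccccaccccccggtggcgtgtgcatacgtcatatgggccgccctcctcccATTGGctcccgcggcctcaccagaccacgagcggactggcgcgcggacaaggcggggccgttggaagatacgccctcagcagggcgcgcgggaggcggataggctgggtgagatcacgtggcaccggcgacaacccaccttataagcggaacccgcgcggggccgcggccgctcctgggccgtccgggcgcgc
Hmgcs1: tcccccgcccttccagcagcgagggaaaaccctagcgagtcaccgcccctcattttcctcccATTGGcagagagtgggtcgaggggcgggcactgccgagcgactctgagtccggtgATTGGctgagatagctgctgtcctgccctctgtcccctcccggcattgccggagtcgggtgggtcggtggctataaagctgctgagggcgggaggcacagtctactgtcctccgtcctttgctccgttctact
Idi1: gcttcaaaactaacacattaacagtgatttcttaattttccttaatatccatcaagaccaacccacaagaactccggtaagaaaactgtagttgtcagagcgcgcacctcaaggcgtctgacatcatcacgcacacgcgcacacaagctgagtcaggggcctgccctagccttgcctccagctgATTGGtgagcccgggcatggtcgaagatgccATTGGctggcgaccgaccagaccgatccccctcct
Sc4mol: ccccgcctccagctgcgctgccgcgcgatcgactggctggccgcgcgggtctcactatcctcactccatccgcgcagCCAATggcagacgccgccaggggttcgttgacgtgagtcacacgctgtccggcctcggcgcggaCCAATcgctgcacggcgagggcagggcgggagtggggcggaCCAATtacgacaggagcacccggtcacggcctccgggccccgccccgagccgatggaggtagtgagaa
Acat2: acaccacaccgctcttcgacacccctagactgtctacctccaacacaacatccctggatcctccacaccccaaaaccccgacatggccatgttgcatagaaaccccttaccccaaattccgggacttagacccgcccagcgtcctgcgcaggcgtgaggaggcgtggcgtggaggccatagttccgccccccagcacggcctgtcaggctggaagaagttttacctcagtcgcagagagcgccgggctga
Dhcr7: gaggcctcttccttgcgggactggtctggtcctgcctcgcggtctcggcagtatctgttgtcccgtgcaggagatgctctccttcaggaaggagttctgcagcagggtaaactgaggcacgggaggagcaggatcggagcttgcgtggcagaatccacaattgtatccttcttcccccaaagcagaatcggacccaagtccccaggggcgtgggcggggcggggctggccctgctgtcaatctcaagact
The box began 193 bases before the start in Insig1, at 188 and 133 in Hmgcs1, at 66 and 35 in Idi1, and at 173, 109 and 68 in Sc4mol, and Acat2 and Dhcr7 held none in this window. Hsd17b7, which like Acat2 and Dhcr7 was higher in both strains at both ages, held the box at 176, 86 and 25, so the genes shown do not stand for all genes with that pattern. Of the 37 genes, 31 had a promoter in the table; Pmvk, Fdft1, Sqle, Scarb1, Lipe and Abcg1 were not listed. CCAAT on either strand was found in 20 of the 31 (64.5%), against 34% of 33469 rat promoters of the same length. Among synthesis genes it was found in 13 of 16 (81.2%) and among the others in 7 of 15 (46.7%). GGGCGG, the GC box bound by Sp1, was found in 24 of 31 (77.4%), against 30.5% of all promoters. It was found in 14 of 16 synthesis genes (87.5%) and in 10 of 15 of the others (66.7%). The shares of all promoters count every listed promoter, whether or not its gene is expressed here. Each of the 31 genes is expressed and has 1 promoter, so the sets compared are not alike. TCACNCCAC, a form of the sterol regulatory element bound by SREBP, was found in 0 of 31 and in 0.974% of all promoters, so these letters were absent from the windows searched. Both strands were searched, matches of different motifs may share bases and were counted separately, and a match is only a description of the sequence.

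Against WKY, more of these genes were higher than lower in 3 of the 4 comparisons. At 6 weeks 7 of 37 were higher in SHRSP and 8 were lower, with 11.1% of all genes called higher and 12.8% called lower. In SHR at 6 weeks 11 were higher and 2 lower, beside 16.6% and 12.6% of all genes, and quantile normalization of the arrays gave 7 higher and 4 lower. At 3 weeks 12 were higher and 1 lower in SHRSP, beside 14.4% and 11.5% of all genes. In SHR at 3 weeks 11 were higher and 0 lower, beside 8.94% and 9.23%. The median log2 difference of the 37 genes was -0.096 in SHRSP and 0.14 in SHR at 6 weeks, when the medians of all genes were -0.0081 and 0.10. At 3 weeks the medians of the 37 genes were 0.21 in SHRSP and 0.14 in SHR, beside 0.082 and -0.012 for all genes. Only SHRSP at 6 weeks had more called lower than higher, and its median lay below 0. Arrays were run on 5 slides, and within those that held both strains the median of the 37 genes was 0.060 in SHRSP and 0.24 in SHR on the 1 slide at 6 weeks, 0.23 and 0.22 in SHRSP on 2 slides and 0.14, 0.26 and 0.20 in SHR on 3 slides at 3 weeks. On each of these slides every called gene had the sign of its call. The calls were made from these same arrays among others, so the signs are not a separate test. The SHRSP median at 6 weeks was above 0 within its slide and below 0 over all arrays, and ran from -0.17 to 0.024 over the other settings, above 0 without WKY replicate 1. The SHR median at 6 weeks was 0.018 with quantile normalization, where that of all genes was 0.023, and 0.21 with the scan day as a block, and ran from 0.018 to 0.27 over the other settings.

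By role, the 19 synthesis genes had 4 higher and 4 lower in SHRSP and 6 higher and 2 lower in SHR at 6 weeks. At 3 weeks they had 7 higher in SHRSP and 6 in SHR, with 0 lower in either. The 18 other genes had 3 higher and 4 lower in SHRSP and 5 higher in SHR at 6 weeks, and 5 higher and 1 lower in SHRSP and 5 higher in SHR at 3 weeks. 6 genes were higher in all 4 comparisons with WKY: Acat2, Cyp51, Hsd17b7 and Dhcr7 of synthesis, Scarb1 of uptake and Abca1 of efflux. Idi1 and Srebf2 were called higher in 3 of the 4, no gene was lower in all 4, 3 genes (Idi1, Insig1 and Lipe) were called in both directions, and 15 were called in none. The comparisons at 1 age share their WKY arrays. For the counts by role, the shares of all genes are those given above. The share of all genes called in all 4 or in none was not counted, so these counts have no background beside them.

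**Figure D1:**
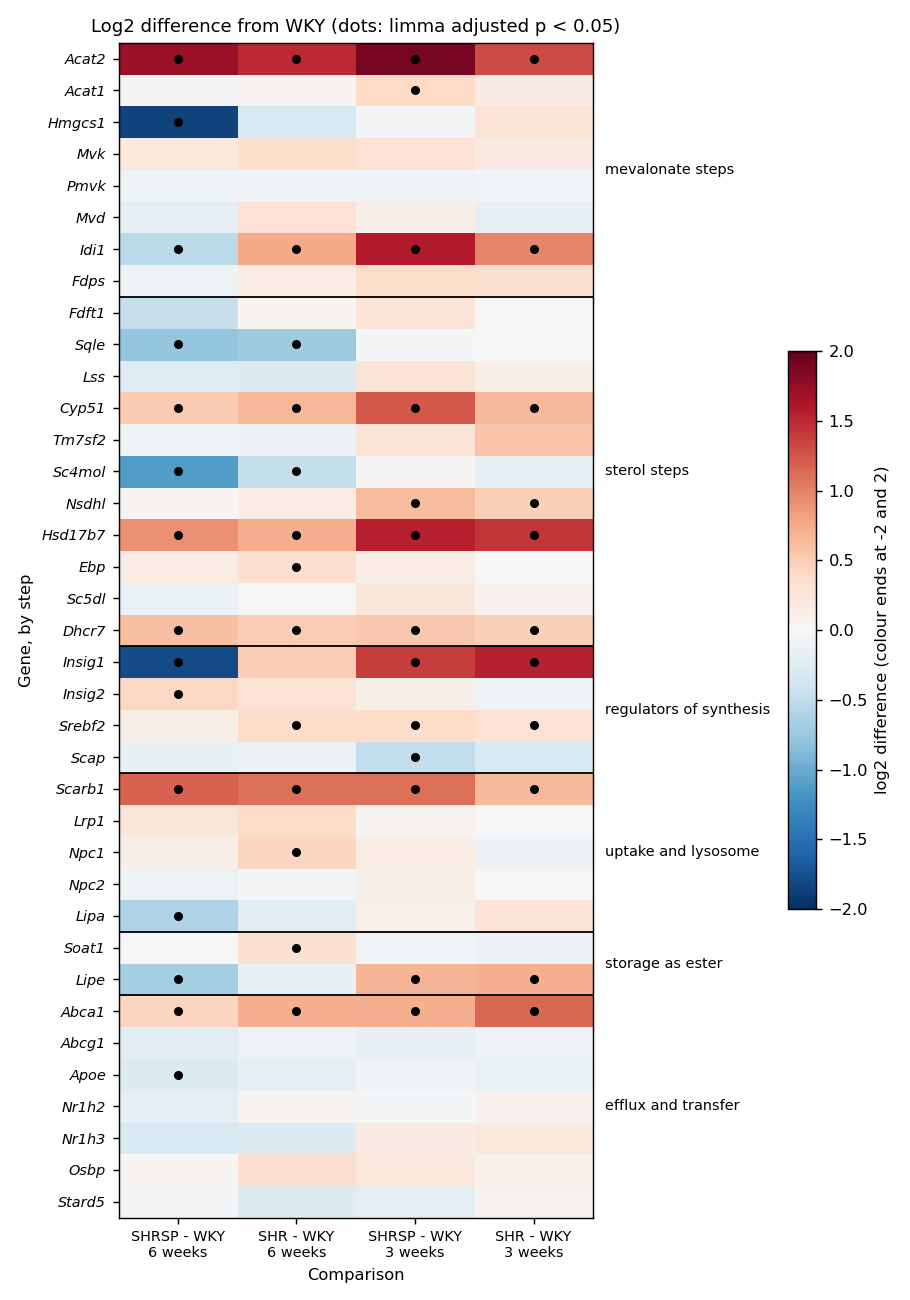
Log2 differences of the 37 genes, in rows grouped by role, against WKY in SHRSP and SHR at 6 weeks and then at 3 weeks. Colour gives the log2 difference, red higher and blue lower than WKY, and a dot marks a limma adjusted p under 0.05. Acat2, Cyp51, Hsd17b7, Dhcr7, Scarb1 and Abca1 carry a dot in all 4 columns, and Insig1 is lower than WKY only in SHRSP at 6 weeks.

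The mevalonate steps turn acetyl-CoA into isoprenoid units. Acat2, the cytosolic thiolase that joins acetyl-CoA units, had the widest difference from WKY of the 8. At 6 weeks Acat2 read 3.68, 3.77 and 4.10 on the SHRSP arrays, 3.49, 3.49 and 3.90 on the SHR arrays and 2.0, 2.03 and 2.37 on the WKY arrays. At 3 weeks Acat2 read 2.84, 3.21 and 3.77 on the SHRSP arrays, 2.51, 2.67 and 2.85 on the SHR arrays and 1.28, 1.44 and 1.40 on the WKY arrays. Every SHRSP and SHR array lay above every WKY array of its age. The log2 difference from WKY was 1.72 ± 0.20 (adjusted p = 2.55e-05) in SHRSP and 1.49 ± 0.20 (adjusted p = 9.00e-05) in SHR at 6 weeks. At 3 weeks it was 1.90 ± 0.20 (adjusted p = 1.36e-05) in SHRSP and 1.31 ± 0.20 (adjusted p = 0.000444) in SHR, so that the SHRSP signal was 3.74 times that of WKY. A second, much dimmer Acat2 probe gave -0.50 in SHRSP and -0.15 in SHR at 6 weeks and -0.44 and -0.14 at 3 weeks, none of them called, so the increase was seen with the brighter probe and not with the dimmer one. Which transcript the dimmer probe reads was not tested. All 4 calls of the brighter probe were kept in all 16 other settings tried for each.

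Hmgcs1, the synthase that makes HMG-CoA, differed in SHRSP at 6 weeks. At 6 weeks Hmgcs1 read 1.91, 2.12 and 2.08 on the SHRSP arrays, 3.81, 3.63 and 3.31 on the SHR arrays and 3.65, 3.80 and 4.21 on the WKY arrays. The SHRSP arrays lay below all SHR and WKY arrays. At 3 weeks Hmgcs1 read 3.02, 3.15 and 2.62 on the SHRSP arrays, 2.90, 3.40 and 3.44 on the SHR arrays and 2.8, 3.01 and 3.09 on the WKY arrays. The 3 strains overlapped at this age. The log2 difference of SHRSP from WKY was -1.85 ± 0.19 (adjusted p = 7.42e-06) at 6 weeks and -0.038 ± 0.19 (adjusted p = 0.916) at 3 weeks, and that of SHR was -0.30 ± 0.19 (adjusted p = 0.257) at 6 weeks. At 6 weeks the SHRSP signal was 0.277 times that of WKY. On the slide that held all 3 strains at 6 weeks the difference of SHRSP from WKY was -1.72.

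Idi1, which interconverts the isoprenoid building blocks, changed side between the ages in SHRSP. At 6 weeks Idi1 read 1.43, 1.63 and 1.74 on the SHRSP arrays, 2.81, 2.90 and 2.96 on the SHR arrays and 1.73, 2.19 and 2.49 on the WKY arrays. At 3 weeks Idi1 read 1.74, 2.05 and 2.23 on the SHRSP arrays, 1.06, 1.63 and 1.46 on the SHR arrays and 0.34, 0.43 and 0.47 on the WKY arrays. At 3 weeks all SHRSP and SHR arrays were above all WKY arrays, and at 6 weeks all SHR arrays still were, whereas the SHRSP arrays lay mostly below and overlapped WKY. Against WKY the log2 difference was -0.54 ± 0.18 (adjusted p = 0.0458) in SHRSP and 0.75 ± 0.18 (adjusted p = 0.00688) in SHR at 6 weeks, and 1.59 ± 0.18 (adjusted p = 3.04e-05) in SHRSP and 0.97 ± 0.18 (adjusted p = 0.00199) in SHR at 3 weeks. The lower call in SHRSP at 6 weeks was kept in 9 of 16 other settings, and was lost without any one of SHRSP replicates 1, 2 or 3 or WKY replicates 2 or 3 (adjusted p = 0.0545 to 0.187), and with no filter on dim probes and with only the groups compared in the fit (adjusted p = 0.0656 to 0.164). The call in SHR at 6 weeks was kept in 15 of 16 other settings, and was lost with only the groups compared in the fit (adjusted p = 0.0628).

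Mvd, the decarboxylase of the mevalonate steps, was called in no comparison with WKY. At 6 weeks Mvd read 0.26, 0.17 and 0.018 on the SHRSP arrays, 0.89, 0.40 and 0.57 on the SHR arrays and 0.28, 0.25 and 0.45 on the WKY arrays. At 3 weeks Mvd read 0.20, 0.23 and 0.26 on the SHRSP arrays, -0.17, -0.082 and 0.072 on the SHR arrays and 0.081, 0.16 and 0.069 on the WKY arrays. Its only called strain difference was between the hypertensive strains at 6 weeks, at -0.47 ± 0.11 (adjusted p = 0.0109) for SHRSP against SHR, where the 3 SHRSP arrays lay below the 3 SHR arrays. The call was kept in 15 of 16 other settings, and was lost with only the groups compared in the fit (adjusted p = 0.143). Acat1, the mitochondrial thiolase, was higher in SHRSP than in WKY at 3 weeks by 0.39 ± 0.10 (adjusted p = 0.0101) and was not called in the other 3 comparisons (0.019, 0.047 and 0.17). The kinases Mvk and Pmvk and the farnesyl diphosphate synthase Fdps were called in none of the 4. Their differences from WKY ran from 0.18 to 0.36 for Mvk, from -0.096 to -0.055 for Pmvk and from -0.097 to 0.36 for Fdps.

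The sterol steps turn farnesyl diphosphate into cholesterol, and 3 of their 11 genes were higher in both hypertensive strains at both ages. Hsd17b7, the keto-reductase of sterol demethylation, showed the widest of these differences. At 6 weeks Hsd17b7 read -1.04, -0.78 and -0.81 on the SHRSP arrays, -1.32, -1.06 and -0.81 on the SHR arrays and -1.94, -1.79 and -1.62 on the WKY arrays. At 3 weeks Hsd17b7 read -1.93, -1.22 and -1.41 on the SHRSP arrays, -1.83, -1.68 and -1.43 on the SHR arrays and -3.21, -3.03 and -2.98 on the WKY arrays. At each age all SHRSP and SHR arrays lay above all WKY arrays. Relative to WKY the difference was 0.91 ± 0.18 (adjusted p = 0.00158) in SHRSP and 0.72 ± 0.18 (adjusted p = 0.00664) in SHR at 6 weeks, and 1.55 ± 0.18 (adjusted p = 2.46e-05) in SHRSP and 1.43 ± 0.18 (adjusted p = 7.08e-05) in SHR at 3 weeks. All 4 calls were kept in all 16 settings.

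Cyp51, the lanosterol demethylase, was highest in SHRSP at 3 weeks relative to WKY. At 6 weeks Cyp51 read 0.87, 1.03 and 1.07 on the SHRSP arrays, 1.13, 1.09 and 1.15 on the SHR arrays and 0.24, 0.32 and 0.81 on the WKY arrays. At 3 weeks Cyp51 read 0.57, 0.88 and 1.01 on the SHRSP arrays, 0.0070, 0.30 and 0.44 on the SHR arrays and -0.52, -0.41 and -0.27 on the WKY arrays. The arrays of both hypertensive strains lay above those of WKY at both ages. Differences from WKY were 0.53 ± 0.15 (adjusted p = 0.0205) in SHRSP and 0.66 ± 0.15 (adjusted p = 0.00492) in SHR at 6 weeks, and 1.22 ± 0.15 (adjusted p = 6.28e-05) in SHRSP and 0.65 ± 0.15 (adjusted p = 0.00853) in SHR at 3 weeks. The call in SHRSP at 6 weeks was kept in 11 of 16 other settings, and was lost without any one of SHRSP replicates 2 or 3 or WKY replicates 1 or 2 (adjusted p = 0.0570 to 0.0882), and with only the groups compared in the fit (adjusted p = 0.111). The call in SHR at 6 weeks was kept in 15 of 16 other settings, and was lost with only the groups compared in the fit (adjusted p = 0.0548).

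Dhcr7, the reductase of a last step to cholesterol, had 4 differences of like size. At 6 weeks Dhcr7 read 4.52, 4.27 and 4.37 on the SHRSP arrays, 4.44, 4.06 and 4.35 on the SHR arrays and 3.80, 3.41 and 4.14 on the WKY arrays. At 3 weeks Dhcr7 read 3.66, 3.52 and 3.70 on the SHRSP arrays, 3.65, 3.54 and 3.51 on the SHR arrays and 3.13, 3.16 and 2.99 on the WKY arrays. The arrays of SHRSP stood above those of WKY at both ages, and those of SHR did so at 3 weeks, while at 6 weeks SHR and WKY overlapped. Compared with WKY, the log2 difference was 0.60 ± 0.15 (adjusted p = 0.00914) in SHRSP and 0.50 ± 0.15 (adjusted p = 0.0218) in SHR at 6 weeks, and 0.53 ± 0.15 (adjusted p = 0.0169) in SHRSP and 0.48 ± 0.15 (adjusted p = 0.0408) in SHR at 3 weeks. The call in SHR at 6 weeks was kept in 11 of 16 other settings, and was lost without any one of SHR replicates 1 or 3 or WKY replicate 2 (adjusted p = 0.0692 to 0.0870), and with quantile normalization and with only the groups compared in the fit (adjusted p = 0.162 to 0.183). The call in SHRSP at 3 weeks was kept in 14 of 16 other settings, and was lost without any one of SHRSP replicate 3 or WKY replicate 3 (adjusted p = 0.0639 to 0.0647). The call in SHR at 3 weeks was kept in 8 of 16 other settings, and was lost without any one of SHR replicates 1, 2 or 3 or WKY replicates 1, 2 or 3 (adjusted p = 0.0747 to 0.133), and with normexp background correction and with no filter on dim probes (adjusted p = 0.0597 to 0.0601).

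**Figure D2:**
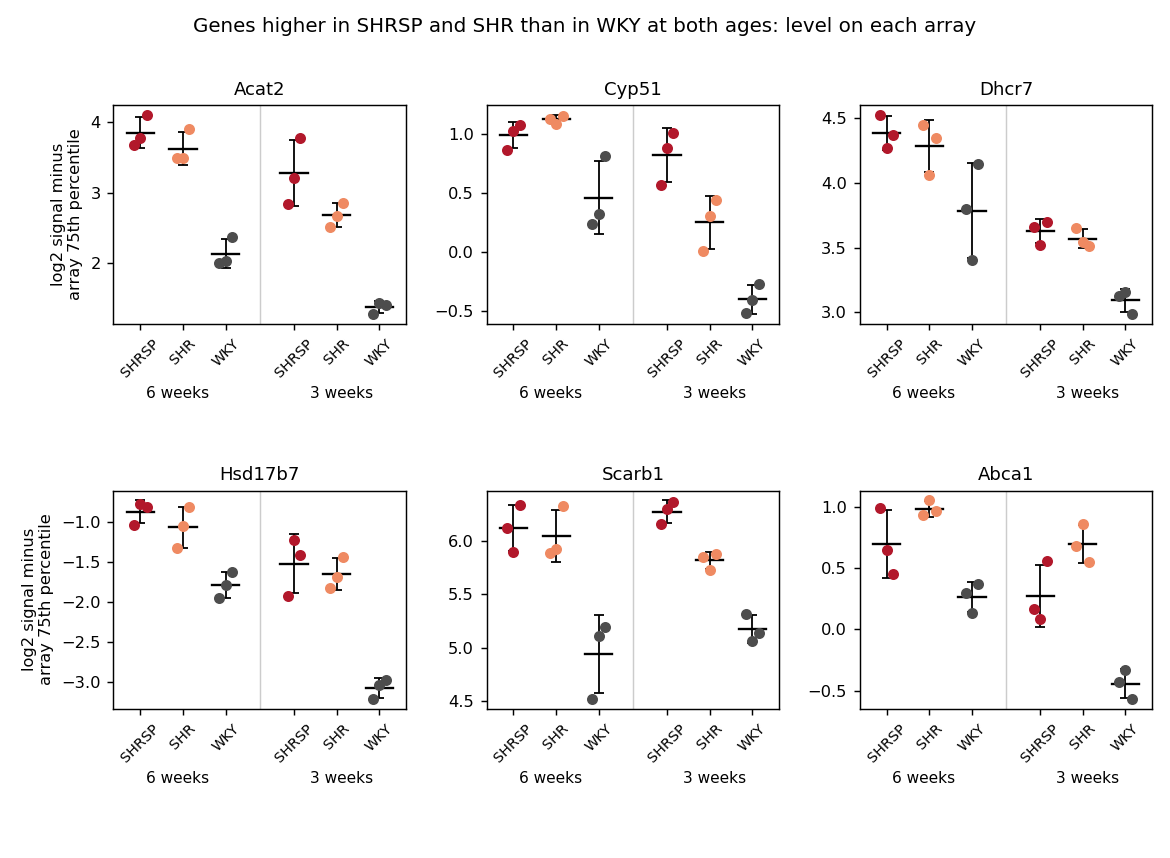
Log2 level on each array (points) of the 6 genes called higher than WKY in all 4 comparisons, with SHRSP, SHR and WKY from left to right at 6 weeks and then at 3 weeks. Lines give the group mean and bars its SD (n = 3), and each gene has its own axis. In all 6 panels the SHRSP and SHR points lie above the WKY points at 3 weeks.

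Sc4mol, the methylsterol oxidase, went the other way at 6 weeks. At 6 weeks Sc4mol read 3.07, 3.50 and 3.08 on the SHRSP arrays, 4.08, 3.86 and 3.67 on the SHR arrays and 4.29, 4.14 and 4.58 on the WKY arrays. The SHRSP arrays lay below the SHR arrays, and these lay below the WKY arrays. At 3 weeks Sc4mol read 3.62, 3.63 and 3.39 on the SHRSP arrays, 3.22, 3.45 and 3.31 on the SHR arrays and 3.39, 3.6 and 3.56 on the WKY arrays. At 3 weeks the strains overlapped. At 6 weeks the log2 difference from WKY was -1.12 ± 0.14 (adjusted p = 6.38e-05) in SHRSP and -0.47 ± 0.14 (adjusted p = 0.0249) in SHR. At 3 weeks it was 0.031 ± 0.14 (adjusted p = 0.912) in SHRSP and -0.19 ± 0.14 (adjusted p = 0.433) in SHR. The call in SHR at 6 weeks was kept in 12 of 16 other settings, and was lost without any one of SHR replicates 2 or 3 or WKY replicate 3 (adjusted p = 0.0573 to 0.110), and with only the groups compared in the fit (adjusted p = 0.124).

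Sqle, the squalene epoxidase, was also lower at 6 weeks, at -0.78 ± 0.17 (adjusted p = 0.00381) in SHRSP and -0.71 ± 0.17 (adjusted p = 0.00605) in SHR. At 3 weeks its differences were -0.043 in SHRSP and -0.0079 in SHR. The groups of each call did not overlap. The SHRSP call at 6 weeks was kept in 15 of 16 other settings, and was lost with only the groups compared in the fit (adjusted p = 0.0578). Nsdhl, a dehydrogenase of sterol demethylation, was called higher at 3 weeks, by 0.64 ± 0.14 (adjusted p = 0.00317) in SHRSP and 0.48 ± 0.14 (adjusted p = 0.0255) in SHR. The SHR call was kept in 11 of 16 other settings, and was lost without any one of SHR replicates 2 or 3 or WKY replicates 1, 2 or 3 (adjusted p = 0.0588 to 0.110). Ebp, the sterol isomerase, was higher in SHR at 6 weeks by 0.33 ± 0.10 (adjusted p = 0.0231). The call was kept in 12 of 16 other settings, and was lost without any one of SHR replicate 1 or WKY replicate 2 (adjusted p = 0.0793 to 0.0868), and with quantile normalization and with only the groups compared in the fit (adjusted p = 0.122 to 0.297). Fdft1 (squalene synthase), Lss (lanosterol synthase), Tm7sf2 (a sterol reductase) and Sc5dl (a sterol desaturase) were called in none of the 4 comparisons. Their differences lay between -0.47 and 0.57.

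Among the regulators, Insig1 had the widest called difference between strains of the 37 genes, in SHRSP against SHR at 6 weeks. At 6 weeks Insig1 read 0.15, -0.021 and -0.063 on the SHRSP arrays, 2.46, 2.06 and 2.42 on the SHR arrays and 1.49, 1.60 and 2.34 on the WKY arrays. The SHRSP arrays lay below every SHR and WKY array. At 3 weeks Insig1 read 1.64, 1.48 and 1.94 on the SHRSP arrays, 1.59, 2.15 and 1.80 on the SHR arrays and 0.13, 0.48 and 0.32 on the WKY arrays. At this age the SHRSP and SHR arrays lay above the WKY arrays. The log2 difference from WKY was -1.79 ± 0.21 (adjusted p = 2.66e-05) in SHRSP and 0.50 ± 0.21 (adjusted p = 0.0911) in SHR at 6 weeks, and 1.38 ± 0.21 (adjusted p = 0.000269) in SHRSP and 1.54 ± 0.21 (adjusted p = 0.000171) in SHR at 3 weeks. SHRSP signal at 6 weeks was thus 0.289 times that of WKY, and at 3 weeks 2.60 times. On the slide with all 3 strains at 6 weeks the difference of SHRSP from WKY was -1.67. Every called Insig1 difference was kept in every other setting.

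Srebf2, encoding SREBP-2 itself, moved much less. At 6 weeks Srebf2 read 1.67, 1.70 and 1.68 on the SHRSP arrays, 2.05, 1.89 and 1.87 on the SHR arrays and 1.49, 1.65 and 1.55 on the WKY arrays. At 3 weeks Srebf2 read 1.23, 1.37 and 1.35 on the SHRSP arrays, 1.21, 1.20 and 1.31 on the SHR arrays and 0.93, 0.94 and 0.97 on the WKY arrays. The SHRSP and SHR arrays lay above the WKY arrays at both ages, at 6 weeks by a narrow margin in SHRSP. Against WKY the log2 difference was 0.12 ± 0.070 (adjusted p = 0.257) in SHRSP and 0.37 ± 0.070 (adjusted p = 0.00114) in SHR at 6 weeks, and 0.37 ± 0.070 (adjusted p = 0.00138) in SHRSP and 0.29 ± 0.070 (adjusted p = 0.00905) in SHR at 3 weeks. The SHR call at 6 weeks was kept in 15 of 16 other settings, and was lost with only the groups compared in the fit (adjusted p = 0.0730). Insig2, the second retention protein, was higher in SHRSP at 6 weeks by 0.41 ± 0.11 (adjusted p = 0.0119). A dimmer Insig2 probe gave 0.15 there and was not called. The Insig2 call was kept in 12 of 16 other settings, and was lost without any one of SHRSP replicate 1 or WKY replicate 2 (adjusted p = 0.0565 to 0.0616), and with the mean of all probes and with only the groups compared in the fit (adjusted p = 0.0764 to 0.110). Scap, the escort of SREBP, was lower in SHRSP at 3 weeks, at -0.49 ± 0.13 (adjusted p = 0.0105) and was not called in the other 3 comparisons.

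Of the uptake and lysosome genes, Scarb1, the receptor for high-density lipoprotein, was higher in all 4 comparisons with WKY. At 6 weeks Scarb1 read 6.13, 5.90 and 6.34 on the SHRSP arrays, 5.89, 5.93 and 6.33 on the SHR arrays and 4.52, 5.11 and 5.20 on the WKY arrays. At 3 weeks Scarb1 read 6.16, 6.31 and 6.36 on the SHRSP arrays, 5.85, 5.73 and 5.88 on the SHR arrays and 5.32, 5.06 and 5.14 on the WKY arrays. All SHRSP and SHR arrays lay above all WKY arrays of their age. Relative to WKY the difference was 1.18 ± 0.17 (adjusted p = 0.000155) in SHRSP and 1.11 ± 0.17 (adjusted p = 0.000256) in SHR at 6 weeks, and 1.10 ± 0.17 (adjusted p = 0.000289) in SHRSP and 0.65 ± 0.17 (adjusted p = 0.0156) in SHR at 3 weeks. At 6 weeks the signal was 2.27 times that of WKY in SHRSP and 2.16 times in SHR. A second probe was called higher in all 4 comparisons too, with differences of 1.73 in SHRSP and 1.32 in SHR at 6 weeks and 1.49 in SHRSP and 0.93 in SHR at 3 weeks. The SHR call at 3 weeks was kept in 13 of 16 other settings, and was lost without any one of SHR replicate 3 or WKY replicates 2 or 3 (adjusted p = 0.0505 to 0.0643).

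Npc1, which exports cholesterol from the lysosome together with Npc2, was higher in SHR at 6 weeks. At 6 weeks Npc1 read 1.99, 1.91 and 1.85 on the SHRSP arrays, 2.23, 2.24 and 2.18 on the SHR arrays and 1.66, 1.79 and 1.89 on the WKY arrays. At 3 weeks Npc1 read 1.89, 1.56 and 1.88 on the SHRSP arrays, 1.71, 1.5 and 1.31 on the SHR arrays and 1.57, 1.74 and 1.58 on the WKY arrays. At 6 weeks the SHR arrays lay above the WKY arrays. Differences from WKY were 0.14 ± 0.11 (adjusted p = 0.437) in SHRSP and 0.44 ± 0.11 (adjusted p = 0.00803) in SHR at 6 weeks, and 0.15 ± 0.11 (adjusted p = 0.375) in SHRSP and -0.12 ± 0.11 (adjusted p = 0.522) in SHR at 3 weeks. The SHR call at 6 weeks was kept in 15 of 16 other settings, and was lost with quantile normalization (adjusted p = 0.116). The other Npc1 probe gave 0.75 in SHR at 6 weeks, and was also called in SHRSP, at 0.39 at 6 weeks and 0.39 at 3 weeks. Lipa, the lysosomal acid lipase that splits incoming cholesteryl ester, was lower in SHRSP at 6 weeks, at -0.62 ± 0.17 (adjusted p = 0.0127). The Lipa call was kept in 13 of 16 other settings, and was lost without any one of SHRSP replicate 1 or WKY replicate 2 (adjusted p = 0.0630 to 0.0692), and with only the groups compared in the fit (adjusted p = 0.112). Npc2 and the endocytic receptor Lrp1 were called in none of the 4, with differences from -0.097 to 0.12 for Npc2 and from 0.012 to 0.36 for Lrp1.

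The 2 ester storage genes act in opposite directions: Soat1 makes cholesteryl ester and Lipe, the hormone-sensitive lipase, releases cholesterol from it. At 6 weeks Lipe read -3.22, -3.12 and -3.36 on the SHRSP arrays, -2.66, -2.72 and -2.77 on the SHR arrays and -2.26, -2.83 and -2.63 on the WKY arrays. At 3 weeks Lipe read -2.28, -1.88 and -2.0 on the SHRSP arrays, -2.14, -2.21 and -1.70 on the SHR arrays and -2.64, -3.0 and -2.55 on the WKY arrays. Lipe was high on the SHRSP and SHR arrays at 3 weeks, all above WKY, and low on the SHRSP arrays at 6 weeks, all below WKY. Compared with WKY, the log2 difference was -0.66 ± 0.17 (adjusted p = 0.0105) in SHRSP and -0.14 ± 0.17 (adjusted p = 0.565) in SHR at 6 weeks, and 0.68 ± 0.17 (adjusted p = 0.00865) in SHRSP and 0.72 ± 0.17 (adjusted p = 0.00847) in SHR at 3 weeks. The SHRSP call at 6 weeks was kept in 13 of 16 other settings, and was lost without WKY replicate 1 (adjusted p = 0.0502), and with the mean of all probes and with only the groups compared in the fit (adjusted p = 0.0547 to 0.0587). A second Lipe probe was called in SHRSP at 3 weeks only, at 0.85, and gave -0.35 in SHRSP and 0.22 in SHR at 6 weeks and 0.60 in SHR at 3 weeks. Lipe is also abundant in fat, and all 12 adipose markers were well above background on all 18 arrays. The summed level of the 12 adipose markers was 51.1 to 73.2 in SHRSP, 37.4 to 57.5 in SHR and 51.1 to 115 in WKY at 6 weeks, and 67.0 to 121 in SHRSP, 75 to 152 in SHR and 44.7 to 87.8 in WKY at 3 weeks. Of the 12 markers 0 were called higher and 0 lower in SHRSP and 0 and 2 in SHR at 6 weeks, and 3 and 0 in SHRSP and 2 and 0 in SHR at 3 weeks. The shares of all genes called are those given above for each comparison with WKY. The part of fat around the gland in the Lipe differences was not tested.

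Soat1 varied little. At 6 weeks Soat1 read 0.046, -0.080 and -0.12 on the SHRSP arrays, 0.26, 0.24 and 0.28 on the SHR arrays and 0.072, -0.27 and 0.056 on the WKY arrays. At 3 weeks Soat1 read 0.25, -0.0011 and 0.015 on the SHRSP arrays, 0.23, -0.036 and -0.10 on the SHR arrays and 0.19, 0.17 and 0.086 on the WKY arrays. Only the SHR arrays at 6 weeks stood above WKY. The log2 difference from WKY was -0.0049 ± 0.11 (adjusted p = 0.984) in SHRSP and 0.31 ± 0.11 (adjusted p = 0.0470) in SHR at 6 weeks, and -0.059 ± 0.11 (adjusted p = 0.760) in SHRSP and -0.12 ± 0.11 (adjusted p = 0.528) in SHR at 3 weeks. The call was kept in 8 of 16 other settings, and was lost without any one of SHR replicates 1, 2 or 3 or WKY replicate 2 (adjusted p = 0.0813 to 0.172), and with quantile normalization, with normexp background correction, with no filter on dim probes and with only the groups compared in the fit (adjusted p = 0.0651 to 0.173).

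**Figure D3:**
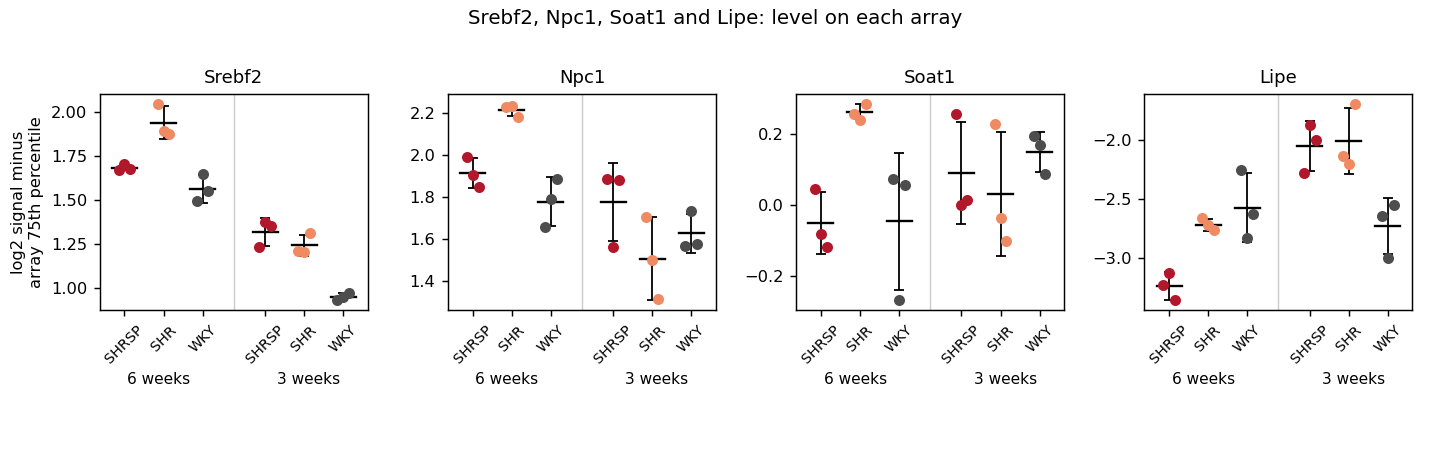
Log2 level on each array (points) of Srebf2, Npc1, Soat1 and Lipe, with SHRSP, SHR and WKY from left to right at 6 weeks and then at 3 weeks. Lines give the group mean and bars its SD (n = 3), and each gene has its own axis. Npc1 and Soat1 are highest in SHR at 6 weeks, and Lipe in SHRSP lies above WKY at 3 weeks and below it at 6 weeks.

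Abca1, which loads cholesterol onto apolipoprotein A-I, was the gene of efflux and transfer that was higher in all 4 comparisons. At 6 weeks Abca1 read 0.99, 0.65 and 0.45 on the SHRSP arrays, 0.93, 1.05 and 0.97 on the SHR arrays and 0.30, 0.13 and 0.37 on the WKY arrays. At 3 weeks Abca1 read 0.17, 0.085 and 0.56 on the SHRSP arrays, 0.69, 0.86 and 0.55 on the SHR arrays and -0.43, -0.33 and -0.57 on the WKY arrays. At both ages the WKY arrays were the lowest. Against WKY the log2 difference was 0.43 ± 0.15 (adjusted p = 0.0443) in SHRSP and 0.72 ± 0.15 (adjusted p = 0.00210) in SHR at 6 weeks, and 0.71 ± 0.15 (adjusted p = 0.00231) in SHRSP and 1.14 ± 0.15 (adjusted p = 9.81e-05) in SHR at 3 weeks. The SHRSP call at 6 weeks was kept in 7 of 16 other settings, and was lost without any one of SHRSP replicates 1 or 2 or WKY replicates 1, 2 or 3 (adjusted p = 0.0542 to 0.212), and with quantile normalization, with the replicate block, with no filter on dim probes and with only the groups compared in the fit (adjusted p = 0.0624 to 0.158). Macrophages also express Abca1, and all 10 macrophage markers were well above background on all 18 arrays. The summed level of the 10 macrophage markers was 24.4 to 38.4 in SHRSP, 35.8 to 40.8 in SHR and 17.0 to 24.8 in WKY at 6 weeks, and 29.2 to 32.7 in SHRSP, 21.7 to 23.5 in SHR and 18.4 to 21.2 in WKY at 3 weeks. Of the 10, 1 was called higher in SHRSP and 3 in SHR at 6 weeks, and 6 in SHRSP and 0 in SHR at 3 weeks. Of all genes, 11.1% and 16.6% were called higher in SHRSP and SHR at 6 weeks, and 14.4% and 8.94% at 3 weeks. Macrophage markers called lower than WKY are not counted here. The part of macrophages in the Abca1 difference was not tested.

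Apoe, an apolipoprotein made in the gland, was lower in SHRSP at 6 weeks, at -0.27 ± 0.084 (adjusted p = 0.0319). The Apoe call was kept in 10 of 16 other settings, and was lost without any one of SHRSP replicates 2 or 3 or WKY replicates 1 or 3 (adjusted p = 0.0509 to 0.129), and with quantile normalization and with only the groups compared in the fit (adjusted p = 0.108 to 0.158). The efflux transporter Abcg1, the liver X receptors Nr1h2 and Nr1h3, the oxysterol-binding protein Osbp and the START-domain transfer protein Stard5 were called in none of the 4 comparisons. Their differences lay between -0.30 and 0.33. At 6 weeks Stard5 read -4.65, -4.62 and -4.58 on the SHRSP arrays, -4.92, -4.81 and -4.80 on the SHR arrays and -4.44, -4.60 and -4.69 on the WKY arrays. At 3 weeks Stard5 read -4.86, -4.56 and -4.86 on the SHRSP arrays, -4.56, -4.38 and -4.52 on the SHR arrays and -4.46, -4.67 and -4.55 on the WKY arrays. At 6 weeks the SHR arrays of Stard5 were the lowest, and at 3 weeks the strains overlapped in part, with differences from WKY of -0.041 in SHRSP and -0.27 in SHR at 6 weeks.

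With age, the calls were divided in SHRSP, while most called genes were higher in SHR and nearly all were in WKY. At 6 weeks against 3 weeks, 10 of the 37 were higher and 6 lower in SHRSP, where 10.3% of all genes were called higher and 18.6% lower. In SHR 14 were higher and 3 lower, beside 15.2% and 14.1% of all genes. In WKY 18 were higher and 1 lower, beside 4.92% and 7.57%. The median of the 37 genes was 0.0087 in SHRSP, 0.32 in SHR and 0.44 in WKY. With the scan day as a block it was 0.092 in SHRSP, 0.43 in SHR and 0.30 in WKY, and with the slide as a block 0.083, 0.37 and 0.32, so that SHR then lay above WKY, and quantile normalization gave 0.23 in SHR. Which of SHR and WKY had the higher median thus depended on the setting, and SHRSP had the lowest in each of these. The medians of all genes were -0.091 in SHRSP, 0.082 in SHR and 0.0064 in WKY. Of the 19 synthesis genes 6 were higher and 3 lower with age in SHRSP, 10 and 1 in SHR, and 13 and 1 in WKY. The 1 lower in SHR and in WKY was Acat1, the mitochondrial thiolase, which was also among the 3 in SHRSP. The medians of these 19 were 0.012 in SHRSP, 0.54 in SHR and 0.73 in WKY. Of the 11 sterol steps, 9 were higher with age in WKY. Within single slides the sign of the call was kept by 16 of 16 called genes in SHRSP, 17 of 17 in SHR and 18 and 19 of 19 in WKY on its 2 slides. These arrays were also part of the fit that made the calls, so the signs are not a separate test. Markers of other cells moved between the ages too. The summed level of 6 red cell markers was 143 to 202 at 6 weeks against 224 to 275 at 3 weeks in SHRSP, 164 to 174 against 233 to 262 in SHR and 203 to 240 against 256 to 292 in WKY, with no overlap between the ages in any strain. With age, of the 5 red cell markers tested, 5 were called lower in SHRSP, 5 in SHR and 1 in WKY, and of 12 adipose markers 6, 8 and 0. Of 10 macrophage markers 0 were higher and 2 lower with age in SHRSP, 2 and 1 in SHR, and 0 and 0 in WKY, and their summed level was 35.8 to 40.8 at 6 weeks against 21.7 to 23.5 at 3 weeks in SHR. The part of these cells in the age differences was not tested.

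Of the synthesis genes, 6 were called higher at 6 weeks in each of the 3 strains and had no called difference between age changes: Acat2, Tm7sf2, Hsd17b7, Ebp, Sc5dl and Dhcr7. How many of all genes had this pattern was not counted. Tm7sf2 had the widest change, 1.82 ± 0.20 (adjusted p = 1.84e-05) in SHRSP, 1.47 ± 0.20 (adjusted p = 0.000141) in SHR and 2.15 ± 0.20 (adjusted p = 1.82e-05) in WKY. Acat1 was called lower at 6 weeks in each strain, at -0.71 in SHRSP, -0.45 in SHR and -0.33 in WKY. Srebf2 and Apoe were also higher with age in every strain, Srebf2 by 0.37 in SHRSP, 0.70 in SHR and 0.61 in WKY and Apoe by 0.24 in SHRSP, 0.39 in SHR and 0.44 in WKY. Sqle and Lss were called higher with age in WKY, at 1.05 ± 0.17 (adjusted p = 0.00119) and 0.73 ± 0.17 (adjusted p = 0.0128), and gave 0.32 and 0.23 in SHRSP and 0.35 and 0.32 in SHR without a call. Lipa was lower with age in SHRSP, at -0.55 ± 0.17 (adjusted p = 0.0220). The Acat2 call in SHRSP held in 9 of 16 other settings and failed without replicates 2 or 3 at 6 weeks or replicates 1 or 2 at 3 weeks (adjusted p = 0.0742 to 0.192), and with the mean of all probes, with no filter on dim probes and with only the groups compared in the fit (adjusted p = 0.0566 to 0.149). The Acat2 call in WKY held in 12 of 16 other settings and failed without replicate 3 at 6 weeks or replicates 1, 2 or 3 at 3 weeks (adjusted p = 0.0554 to 0.0840). The Hsd17b7 call in SHRSP held in 14 of 16 other settings and failed without replicate 1 at 3 weeks (adjusted p = 0.0591), and with only the groups compared in the fit (adjusted p = 0.0610). The Hsd17b7 call in SHR held in 11 of 16 other settings and failed without replicates 2 or 3 at 6 weeks or replicates 1 or 2 at 3 weeks (adjusted p = 0.0568 to 0.0990), and with only the groups compared in the fit (adjusted p = 0.0640). The Sc5dl call in SHRSP held in 8 of 16 other settings and failed without replicates 1, 2 or 3 at 6 weeks or replicates 2 or 3 at 3 weeks (adjusted p = 0.0588 to 0.133), and with normexp background correction, with the replicate block and with no filter on dim probes (adjusted p = 0.0514 to 0.0618). The Acat1 call in WKY held in 5 of 16 other settings and failed without replicates 2 or 3 at 6 weeks or replicates 1, 2 or 3 at 3 weeks (adjusted p = 0.0641 to 0.189), and with quantile normalization, with the scan day as a block, with the slide as a block, with the replicate block, with no filter on dim probes and with only the groups compared in the fit (adjusted p = 0.0521 to 0.218). The Apoe call in SHRSP held in 9 of 16 other settings and failed without replicates 1 or 2 at 6 weeks or replicates 1 or 2 at 3 weeks (adjusted p = 0.110 to 0.145), and with the replicate block, with no filter on dim probes and with only the groups compared in the fit (adjusted p = 0.0530 to 0.135). The Lss call in WKY held in 14 of 16 other settings and failed without replicate 2 at 6 weeks or replicate 1 at 3 weeks (adjusted p = 0.0514 to 0.0516). The Lipa call in SHRSP held in 12 of 16 other settings and failed without replicates 1 or 3 at 6 weeks or replicate 3 at 3 weeks (adjusted p = 0.0506 to 0.104), and with only the groups compared in the fit (adjusted p = 0.0675). The arrays of Acat1 in WKY, of Acat2 in SHRSP and of Abca1 in SHRSP overlapped between the ages although called.

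The age change itself was then compared between strains. In SHRSP against WKY 0 of the 37 genes had a higher change and 5 a lower one, where 3.74% and 6.22% of all genes were called. In SHR against WKY 1 was higher and 1 lower, beside 3.70% and 2.36%, and there were 0 higher and 1 lower with quantile normalization and 0 and 2 with normexp background correction. In SHRSP against SHR 1 was higher and 8 were lower, beside 4.36% and 7.71%, and there were 0 and 5 with normexp background correction. The medians of the 37 genes were -0.28, -0.039 and -0.26 in these 3 comparisons, beside -0.072, 0.079 and -0.17 for all genes. Quantile normalization gave -0.24, -0.15 and -0.12 for the 37 genes, beside 0.022, 0.032 and -0.014 for all genes.

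The 5 genes whose age change was lower in SHRSP than in WKY were Insig1, Idi1, Hmgcs1, Sc4mol and Lipe. Insig1 changed with age by -1.66 ± 0.21 (adjusted p = 5.28e-05) in SHRSP, 0.47 ± 0.21 (adjusted p = 0.108) in SHR and 1.5 ± 0.21 (adjusted p = 0.000400) in WKY. The difference between these age changes was -3.17 ± 0.30 (adjusted p = 4.35e-05) for SHRSP against WKY and -2.13 ± 0.30 (adjusted p = 0.000369) for SHRSP against SHR. Insig1 thus fell with age in SHRSP and rose in WKY. Idi1 changed by -0.41 ± 0.18 (adjusted p = 0.113) in SHRSP, 1.51 ± 0.18 (adjusted p = 5.13e-05) in SHR and 1.73 ± 0.18 (adjusted p = 4.74e-05) in WKY, and its age change in SHRSP differed by -2.13 ± 0.26 (adjusted p = 0.000266) from WKY and by -1.92 ± 0.26 (adjusted p = 0.000309) from SHR. Hmgcs1 fell in SHRSP, at -0.89 ± 0.19 (adjusted p = 0.00275), gave 0.34 ± 0.19 (adjusted p = 0.184) in SHR and rose in WKY by 0.92 ± 0.19 (adjusted p = 0.00596). Its age change in SHRSP differed by -1.81 ± 0.27 (adjusted p = 0.000975) from WKY and by -1.23 ± 0.27 (adjusted p = 0.00840) from SHR. All age-change calls of Insig1, Idi1 and Hmgcs1 were kept in all 22 other settings.

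**Figure D4:**
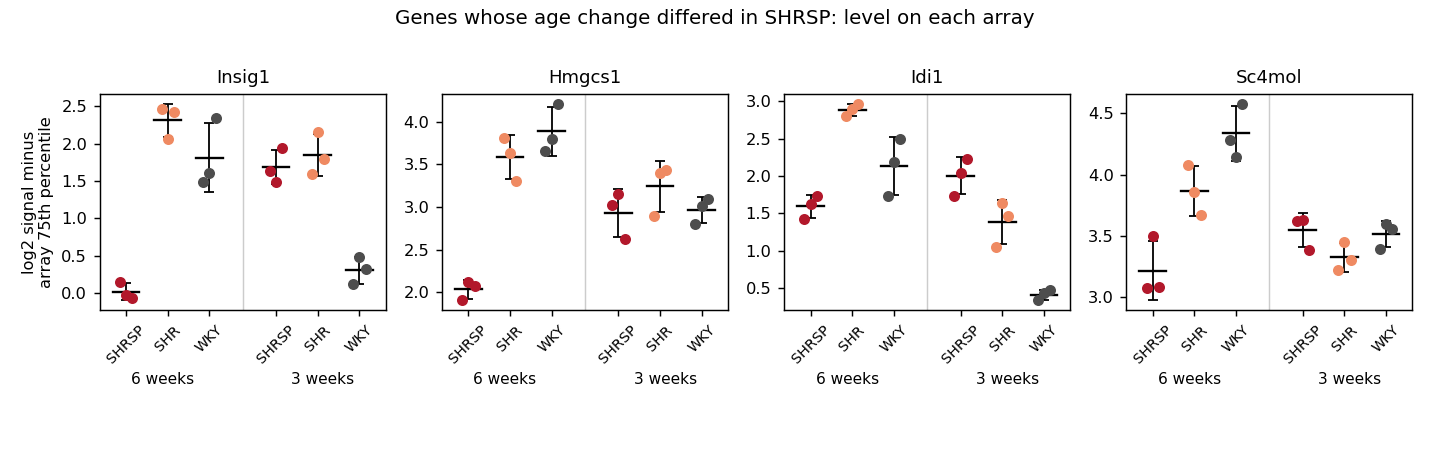
Log2 level on each array (points) of Insig1, Hmgcs1, Idi1 and Sc4mol, with SHRSP, SHR and WKY at 6 weeks left of the same strains at 3 weeks. Lines give the group mean and bars its SD (n = 3), and each gene has its own axis. In all 4 panels SHRSP has the lowest mean of the strains at 6 weeks.

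Sc4mol gave -0.33 ± 0.14 (adjusted p = 0.106) with age in SHRSP, and rose by 0.54 ± 0.14 (adjusted p = 0.0125) in SHR and 0.82 ± 0.14 (adjusted p = 0.00221) in WKY. Its age change in SHRSP differed by -1.15 ± 0.20 (adjusted p = 0.00343) from WKY and by -0.87 ± 0.20 (adjusted p = 0.0136) from SHR. The call against SHR was kept in 21 of 22 other settings, and was lost with quantile normalization (adjusted p = 0.0680). Lipe fell with age in SHRSP, at -1.18 ± 0.17 (adjusted p = 0.000155), and in SHR, at -0.71 ± 0.17 (adjusted p = 0.00686), and gave 0.16 ± 0.17 (adjusted p = 0.616) in WKY. The call with age in SHR was kept in 15 of 16 other settings, and was lost with the slide as a block (adjusted p = 0.0557). The second Lipe probe gave -1.20 (adjusted p = 0.000603) with age in SHRSP and -0.38 (adjusted p = 0.172) in SHR, where it was not called. By the main probe, the age change of Lipe differed from WKY by -1.34 ± 0.24 (adjusted p = 0.00357) in SHRSP and -0.86 ± 0.24 (adjusted p = 0.0483) in SHR. Between age changes the second probe gave -1.19 for SHRSP against WKY, which was called, and -0.38 for SHR against WKY, which was not. The SHR call was kept in 5 of 22 other settings, and was lost without any one of SHR replicates 1, 2 or 3 at 6 weeks, WKY replicates 1 or 3 at 6 weeks, SHR replicates 1, 2 or 3 at 3 weeks or WKY replicates 1, 2 or 3 at 3 weeks (adjusted p = 0.0581 to 0.120), and with quantile normalization, with the slide as a block, with the replicate block, with the mean of all probes, with no filter on dim probes and with only the groups compared in the fit (adjusted p = 0.0576 to 0.174). The adipose sums given above also differed between the ages, and Lipe was not tested apart from them.

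The remaining called differences between age changes were smaller. Mvd differed by -0.76 ± 0.16 (adjusted p = 0.00688) for SHRSP against SHR, with age differences of -0.081 in SHRSP and 0.68 in SHR, and was kept in every setting. Cyp51 differed by -0.70 ± 0.22 (adjusted p = 0.0492) and Srebf2 by -0.33 ± 0.099 (adjusted p = 0.0432) for SHRSP against SHR. The Cyp51 call was kept in 9 of 22 other settings, and was lost without any one of SHRSP replicates 1, 2 or 3 at 6 weeks, SHR replicates 1, 2 or 3 at 6 weeks, SHRSP replicates 2 or 3 at 3 weeks or SHR replicates 1 or 2 at 3 weeks (adjusted p = 0.0560 to 0.121), and with quantile normalization, with normexp background correction and with no filter on dim probes (adjusted p = 0.0576 to 0.113). The Srebf2 call was kept in 7 of 22 other settings, and was lost without any one of SHRSP replicates 1, 2 or 3 at 6 weeks, SHR replicates 1, 2 or 3 at 6 weeks, SHRSP replicates 2 or 3 at 3 weeks or SHR replicates 1 or 2 at 3 weeks (adjusted p = 0.0525 to 0.102), and with quantile normalization, with normexp background correction, with the replicate block, with no filter on dim probes and with only the groups compared in the fit (adjusted p = 0.0506 to 0.259). Npc1 differed by 0.56 ± 0.15 (adjusted p = 0.0482) for SHR against WKY and by -0.57 ± 0.15 (adjusted p = 0.0285) for SHRSP against SHR, having risen with age in SHR by 0.71. The first of these calls was kept in 6 of 22 other settings, and was lost without any one of SHR replicates 1, 2 or 3 at 6 weeks, WKY replicates 1 or 2 at 6 weeks, SHR replicates 2 or 3 at 3 weeks or WKY replicates 1, 2 or 3 at 3 weeks (adjusted p = 0.0734 to 0.119), and with quantile normalization, with normexp background correction, with the slide as a block, with the replicate block, with no filter on dim probes and with only the groups compared in the fit (adjusted p = 0.0512 to 0.192). The second was kept in 11 of 22 other settings, and was lost without any one of SHRSP replicates 2 or 3 at 6 weeks, SHR replicates 2 or 3 at 6 weeks, SHRSP replicates 1 or 3 at 3 weeks or SHR replicates 2 or 3 at 3 weeks (adjusted p = 0.0512 to 0.0747), and with quantile normalization, with normexp background correction and with only the groups compared in the fit (adjusted p = 0.0612 to 0.146). In the limma fit of all probes, the other Npc1 probe gave 0.75 (adjusted p = 0.0162) for SHR against WKY. For SHRSP against SHR it gave -0.75 (adjusted p = 0.00761), and both were called. Stard5 was the only gene with a higher age change in SHRSP than in SHR, by 0.50 ± 0.14 (adjusted p = 0.0298), with 0.14 in SHRSP and -0.36 in SHR. The Stard5 call was kept in 14 of 22 other settings, and was lost without any one of SHRSP replicates 2 or 3 at 6 weeks, SHR replicate 1 at 6 weeks, SHRSP replicates 1 or 3 at 3 weeks or SHR replicate 2 at 3 weeks (adjusted p = 0.0523 to 0.0802), and with normexp background correction and with only the groups compared in the fit (adjusted p = 0.0516 to 0.186).

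Between the hypertensive strains the cholesterol genes differed in 6 calls at 6 weeks and 1 call at 3 weeks. In SHRSP against SHR at 6 weeks 0 were higher and 6 lower, where 6.58% of all genes were higher and 8.58% lower, and quantile normalization gave 1 higher and 5 lower. The median of the 37 genes was -0.13, beside -0.11 for all genes, and was -0.050 with quantile normalization and -0.21 with the scan day as a block. The 6 genes were Insig1 at -2.29 ± 0.21 (adjusted p = 1.04e-05), Hmgcs1 at -1.55 ± 0.19 (adjusted p = 0.000101), Idi1 at -1.30 ± 0.18 (adjusted p = 0.000321), Sc4mol at -0.65 ± 0.14 (adjusted p = 0.00736), Mvd at -0.47 and Srebf2 at -0.26 ± 0.070 (adjusted p = 0.0235). In each the SHRSP arrays lay below the SHR arrays. Within the 2 slides that held both strains at 6 weeks, Insig1 differed by -2.30 and -2.30 and Hmgcs1 by -1.91 and -1.39. The Srebf2 call was kept in 11 of 16 other settings, and was lost without any one of SHRSP replicates 1 or 3 or SHR replicate 1 (adjusted p = 0.0552 to 0.0790), and with quantile normalization and with only the groups compared in the fit (adjusted p = 0.184 to 0.187). At 3 weeks 1 gene was higher and 0 were lower, beside 4.63% and 3.17% of all genes, with 1 and 1 after quantile normalization. That gene was Cyp51, at 0.57 ± 0.15 (adjusted p = 0.0356). Its call was kept in 10 of 16 other settings, and was lost without any one of SHRSP replicates 2 or 3 or SHR replicates 1 or 2 (adjusted p = 0.0843 to 0.145), and with no filter on dim probes and with only the groups compared in the fit (adjusted p = 0.0550 to 0.110). The medians at 3 weeks were 0.075 for the 37 genes and 0.085 for all genes. The dimmer Npc1 probe was called in SHRSP against SHR, at -0.35 at 6 weeks and 0.40 at 3 weeks. The main Npc1 probe gave -0.30 and 0.27 there and was not called.

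Averaged over the 19 synthesis genes, the level of each array relative to the mean of WKY at 3 weeks was 0.54, 0.68 and 0.65 in SHRSP, 0.97, 0.80 and 0.88 in SHR and 0.70, 0.56 and 0.83 in WKY at 6 weeks. At 3 weeks it was 0.42, 0.58 and 0.52 in SHRSP, 0.20, 0.36 and 0.48 in SHR and -0.067, 0.028 and 0.039 in WKY. At 3 weeks the WKY arrays were the lowest, while at 6 weeks the strains overlapped in part, with SHR highest on average. For the 5 genes of uptake and the lysosome the same measure was 0.17, 0.24 and 0.17 in SHRSP, 0.34, 0.36 and 0.39 in SHR and -0.079, 0.030 and 0.13 in WKY at 6 weeks. At 3 weeks it was 0.26, 0.24 and 0.41 in SHRSP, 0.20, 0.14 and 0.16 in SHR and -0.0075, -0.0055 and 0.013 in WKY. These averages describe the arrays and carry no test.

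**Figure D5:**
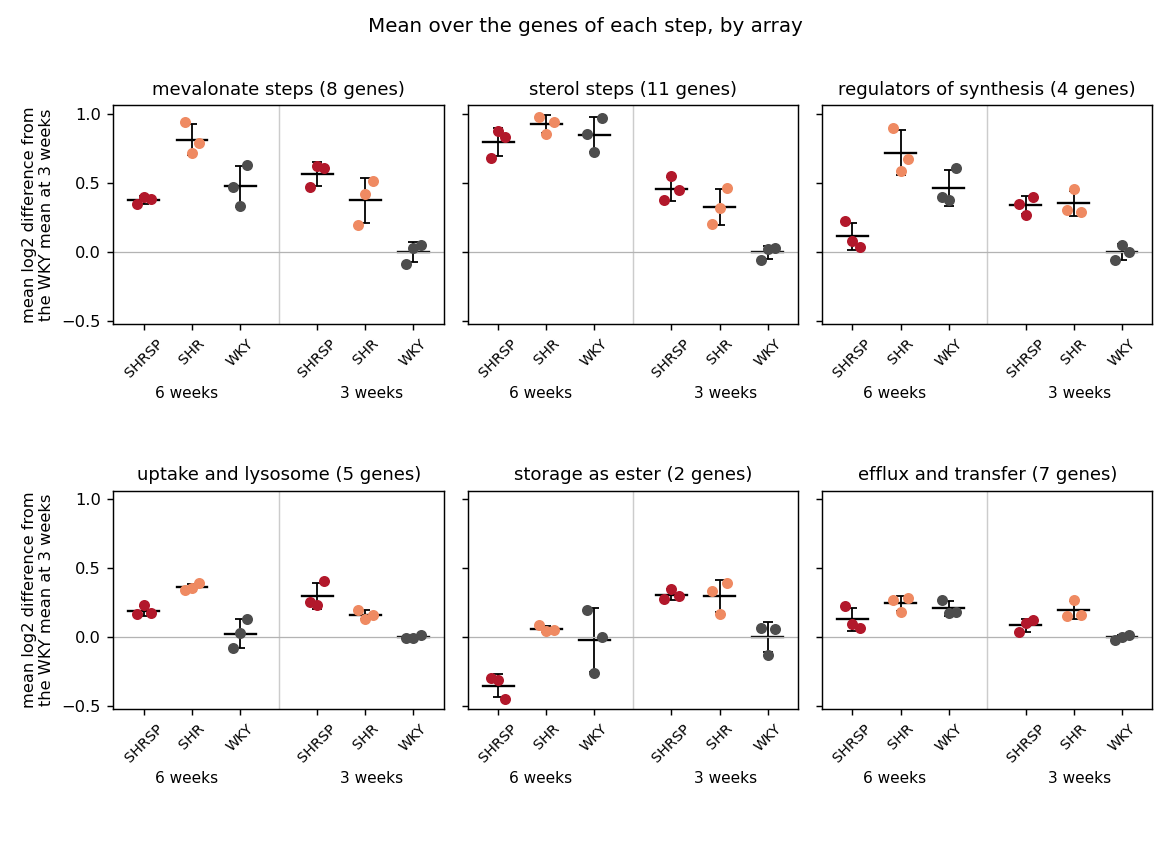
Mean log2 difference of each array from the mean of WKY at 3 weeks, over the genes of each role, with SHRSP, SHR and WKY at 6 weeks left of the same strains at 3 weeks. Points are arrays, lines group means and bars the SD over 3 arrays. For the mevalonate and sterol steps the WKY points are lowest at 3 weeks, and SHRSP has the lowest mean at 6 weeks.

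Genes around these steps were counted from 4 further lists. For all genes tested, the share called higher and lower than WKY was 11.1% and 12.8% in SHRSP and 16.6% and 12.6% in SHR at 6 weeks, and 14.4% and 11.5% in SHRSP and 8.94% and 9.23% in SHR at 3 weeks. Of 31 tested genes of uptake, ester handling and transfer outside the 37, against WKY, the calls were 1 higher and 8 lower in SHRSP and 6 and 5 in SHR at 6 weeks, and 3 and 5 in SHRSP and 5 and 4 in SHR at 3 weeks. Stard4, a protein that carries cholesterol between membranes, had the widest spread of those named. At 6 weeks Stard4 read -0.064, 0.26 and 0.0012 on the SHRSP arrays, 3.03, 2.93 and 2.84 on the SHR arrays and 0.49, 0.60 and 0.68 on the WKY arrays. At 3 weeks Stard4 read 2.44, 2.26 and 2.09 on the SHRSP arrays, -0.029, 0.039 and -0.14 on the SHR arrays and -0.36, -0.18 and -0.32 on the WKY arrays. At 6 weeks the SHR arrays were far above the others, and at 3 weeks the SHRSP arrays were. Relative to WKY the difference was -0.52 ± 0.11 (adjusted p = 0.00227) in SHRSP and 2.34 ± 0.11 (adjusted p = 5.09e-09) in SHR at 6 weeks, and 2.55 ± 0.11 (adjusted p = 2.38e-09) in SHRSP and 0.24 ± 0.11 (adjusted p = 0.137) in SHR at 3 weeks. Stard4 fell with age in SHRSP, at -2.20 ± 0.11 (adjusted p = 1.40e-08), and rose in SHR, at 2.97 ± 0.11 (adjusted p = 4.23e-10). Adfp, the lipid droplet protein now called Plin2, was lower in both strains at both ages, at -1.69 in SHRSP and -1.15 in SHR at 6 weeks and -1.43 and -1.01 at 3 weeks. Cd36, a fatty acid and lipoprotein receptor, was lower at 6 weeks, at -1.23 ± 0.15 (adjusted p = 3.12e-05) in SHRSP and -1.55 ± 0.15 (adjusted p = 5.31e-06) in SHR. Osbpl1a, an oxysterol-binding protein relative, was lower at 6 weeks, at -1.52 ± 0.11 (adjusted p = 4.90e-07) in SHRSP and -1.02 ± 0.11 (adjusted p = 2.15e-05) in SHR, and in SHRSP at 3 weeks, at -0.63 ± 0.11 (adjusted p = 0.00103).

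Of 14 other genes of the sterol pathway, against WKY, the calls were 1 higher and 3 lower in SHRSP and 3 and 2 in SHR at 6 weeks, and 3 and 2 in SHRSP and 1 and 2 in SHR at 3 weeks. Rnf139, a ubiquitin ligase of the endoplasmic reticulum that binds sterol-sensing proteins, was higher in SHR by 1.04 ± 0.11 (adjusted p = 1.78e-05) at 6 weeks and 0.80 ± 0.11 (adjusted p = 0.000255) at 3 weeks, and in SHRSP by 0.49 ± 0.11 (adjusted p = 0.00531) at 3 weeks. Cyb5r3, a reductase that passes electrons to sterol enzymes, was higher at 6 weeks by 0.85 ± 0.11 (adjusted p = 4.79e-05) in SHRSP and 0.66 ± 0.11 (adjusted p = 0.000370) in SHR. Cyp7b1, an oxysterol hydroxylase, was lower in SHR at both ages, at -0.89 at 6 weeks and -0.45 at 3 weeks, and in SHRSP at 3 weeks, at -0.81. Pgrmc1, a haem-binding partner of cytochrome P450 enzymes, was higher in SHRSP at 3 weeks by 0.68 ± 0.12 (adjusted p = 0.000656).

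Of 16 genes that take cholesterol into steroids, against WKY, the calls were 6 higher and 1 lower in SHRSP and 6 and 1 in SHR at 6 weeks, and 5 and 1 in SHRSP and 3 and 1 in SHR at 3 weeks. Star, which moves cholesterol into mitochondria, was higher by 0.57 ± 0.083 (adjusted p = 0.000180) in SHRSP and 0.80 ± 0.083 (adjusted p = 1.21e-05) in SHR at 6 weeks, and by 0.98 ± 0.083 (adjusted p = 2.19e-06) in SHRSP and 0.56 ± 0.083 (adjusted p = 0.000330) in SHR at 3 weeks. Cyp11a1, the side-chain cleavage enzyme, was called in none, with differences from -0.10 to 0.068. Nr0b1, a repressor of steroidogenic genes, was lower in all 4, at -2.62 in SHRSP and -2.46 in SHR at 6 weeks and -1.84 and -0.67 at 3 weeks. Cyp11b2, the aldosterone synthase, was higher at 6 weeks by 0.88 ± 0.13 (adjusted p = 0.000158) in SHRSP and 1.14 ± 0.13 (adjusted p = 2.05e-05) in SHR, and at 3 weeks by 0.53 ± 0.13 (adjusted p = 0.00671) in SHRSP. Prkar1a, a regulatory subunit of protein kinase A, was higher by 0.44 ± 0.095 (adjusted p = 0.00361) in SHRSP and 0.86 ± 0.095 (adjusted p = 1.79e-05) in SHR at 6 weeks, and by 0.67 ± 0.095 (adjusted p = 0.000158) in SHRSP at 3 weeks.

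Of 15 genes of fatty acid synthesis, which SREBP also controls, against WKY, the calls were 2 higher and 2 lower in SHRSP and 3 and 2 in SHR at 6 weeks, and 8 and 1 in SHRSP and 7 and 1 in SHR at 3 weeks. At 3 weeks the median of these 15 was 1.04 in SHRSP and 0.85 in SHR, beside 0.082 and -0.012 for all genes. Fasn, the fatty acid synthase, was higher at 3 weeks by 1.09 ± 0.36 (adjusted p = 0.0375) in SHRSP and 1.20 ± 0.36 (adjusted p = 0.0325) in SHR and gave 0.11 and -0.22 at 6 weeks. Elovl6, a fatty acid elongase, was higher in all 4 comparisons, by 0.61 in SHRSP and 1.22 in SHR at 6 weeks and 1.78 and 1.68 at 3 weeks. Acly, which makes cytosolic acetyl-CoA, was higher at 3 weeks by 1.04 ± 0.17 (adjusted p = 0.000440) in SHRSP and 0.85 ± 0.17 (adjusted p = 0.00268) in SHR. Elovl5, another elongase, was higher in SHR at 6 weeks by 0.78 ± 0.13 (adjusted p = 0.000449). Me1, the malic enzyme that supplies NADPH, was lower in all 4, at -2.24 in SHRSP and -2.01 in SHR at 6 weeks and -1.07 and -0.88 at 3 weeks. Fat also makes fatty acids, and the adipose sums given with Lipe were not separated from these values.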

How the data were processed

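Each of 18 arrays held Cy3-labelled copies of total adrenal RNA, primed with oligo-dT, per the labels' protocols. The deposited files are scanner output of Agilent Feature Extraction 10.5.1.1 with rn4 probe positions, per the file headers, and hold a background-corrected processed intensity for 44254 spots; the deposited series value table held the same intensity values (largest difference 0).

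Control spots (leaving 42877) and outlier spots were left out, spots of a probe averaged, and log2 intensity taken minus the array's 75th percentile (a signal of 2079 to 2600). The brightest of a gene's probes stood for it, and 20846 of 26583 gene names passed the filter, which asked for signal well above background in every array of some group. On each array 77.8 to 84.8% of spots were well above background. 1 limma 3.58.1 model (R 4.3.3) of 6 group means gave 12 comparisons, with Benjamini-Hochberg adjustment over all genes. It was tested on simulated data with independent noise on each array and changes added only to SHRSP at 6 weeks. That simulation held no slide effects, so it does not give the error rate of the calls made here. The members and lists were chosen with earlier results of these data known. All 18 values are given for members called the same way in at least 3 of 4 comparisons with WKY or between age changes, and for Srebf2, Insig1, Scarb1, Npc1, Soat1 and Lipe; of each related list, the 4 genes with the smallest adjusted p against WKY are named, and Star, Stard4, Cyp11a1 and Fasn in any case. 10 other settings and 18 fits without 1 array were tried. The settings included the series value table, whose values were the same, so that setting could lose no call and counts as kept throughout. For the 30 genes with 1 probe, the mean of all probes left the levels unchanged. Slides and scan days hold several groups, so both were also fitted as blocks. Tables were handled in Python 3.11.15 with pandas 2.3.3, and figures in matplotlib 3.10.9.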

Additional observations from a re-analysis of the deposited data

Results flagged for a closer look

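Each result here is a difference between the age changes of 2 strains that passed the limma test of that difference itself (adjusted p under 0.05 over all genes), given as log2. For SHRSP against WKY among the cholesterol genes it was -3.17 for Insig1, -2.13 for Idi1, -1.81 for Hmgcs1, -1.34 for Lipe and -1.15 for Sc4mol. For SHRSP against SHR it was -2.13 for Insig1, -1.92 for Idi1, -1.23 for Hmgcs1, -0.87 for Sc4mol, -0.76 for Mvd, -0.70 for Cyp51, -0.57 for Npc1, -0.33 for Srebf2 and 0.50 for Stard5. For SHR against WKY it was 0.56 for Npc1 and -0.86 for Lipe.

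Among the named genes of the related lists, Stard4 gave -3.07 for SHRSP against WKY, 2.10 for SHR against WKY and -5.17 for SHRSP against SHR. It was the widest of all the differences listed here, with SHR the highest strain at 6 weeks and SHRSP the highest at 3 weeks. For SHRSP against WKY the other values were 0.93 for Cyb5r3, 1.01 for Cyp7b1, -0.82 for Pgrmc1, -0.89 for Osbpl1a, -1.30 for Cd36, -0.40 for Star, -1.16 for Me1, -1.17 for Elovl6 and -0.88 for Acly. For SHRSP against SHR they were 0.51 for Cyb5r3, 1.45 for Cyp7b1, -0.75 for Pgrmc1, 1.02 for Nr0b1, -0.64 for Star, -0.97 for Prkar1a and -0.66 for Cyp11b2. For SHR against WKY they were -0.79 for Osbpl1a, -1.49 for Cd36, -1.80 for Nr0b1, 0.74 for Prkar1a, 1.01 for Cyp11b2 and -1.14 for Me1. The named genes of these lists were chosen mostly for a small adjusted p against WKY.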

How the results depend on the processing

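Over the 12 comparisons 127 calls were made among the 37 genes, of which 77 were kept in every other setting and 50 were lost in at least one, and no called gene changed direction. Counts of called genes changed by over 1.5 times as follows. In SHRSP against SHR at 3 weeks, 1 in the fit reported, the count was 2 with quantile normalization, with normexp background correction and with genes well above background on all arrays, 3 with the scan day as a block, 5 with the slide as a block and 0 with no filter on dim probes. In SHRSP against SHR at 6 weeks, 6 in the fit reported, it was 11 with the scan day and 12 with the slide as a block. In SHR against WKY at 6 weeks it was 20 with the scan day as a block and 6 with only the compared groups fitted, and in SHRSP against WKY at 6 weeks it was 6 with only those groups. Between the age changes of SHR and WKY, 2 in the fit reported, it was 8 with the scan day and 6 with the slide as a block, 1 with quantile normalization and with the mean of all probes, and 0 with no filter and with only the compared groups. Of those 2, Npc1 and Lipe, none was kept with the slide as a block or the replicate block, so the 6 there were other genes. Between those of SHRSP and WKY, 5 in the fit reported, it was 8 with the scan day and 8 with the slide as a block. Between those of SHRSP and SHR, 9 in the fit reported, it was 5 with quantile normalization and with normexp, and 14 with the slide as a block. The cause was not tested, except that a fit of the compared groups alone uses fewer arrays to estimate the spread.

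No pairing of the arrays by replicate number was seen. The correlation of deviations between arrays with the same number ran from -0.526 to 0.578 (median 0.026), and 13 of 45 were over 0.1. With different numbers the median was 0.0067, and 27 of 90 were over 0.1. All replicate 1 arrays were scanned on the same day, so the numbers partly follow the scan day. Between arrays of different groups on the same slide the median was 0.234, and 15 of 24 were over 0.1. On different slides the median was -0.026, and 25 of 111 were over 0.1. The fit reported had no slide term and took the arrays as independent. With the replicate block the counts were 3 in SHRSP against SHR at 3 weeks, and 1 and 8 between the age changes of SHR and WKY and of SHRSP and WKY, and other counts stayed within 1.5 times.

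Leaving out each array in turn, the calls ran from 10 to 13 in SHRSP and 10 to 16 in SHR against WKY at 6 weeks, 12 to 14 in SHRSP and 8 to 12 in SHR at 3 weeks, 5 to 7 between SHRSP and SHR at 6 weeks and 0 to 3 at 3 weeks. With age they ran from 11 to 14 in SHRSP, 15 to 18 in SHR and 15 to 18 in WKY, and between age changes from 5 to 7 for SHRSP against WKY, 0 to 2 for SHR against WKY and 5 to 8 for SHRSP against SHR. Quantile normalization moved the median of all genes by over 0.1 in 3 comparisons: it was -0.0054 in place of -0.11 in SHRSP against SHR at 6 weeks, 0.019 in place of -0.091 with age in SHRSP and -0.014 in place of -0.17 between the age changes of SHRSP and SHR.

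The number of arrays limits the precision. 3 arrays a group, 5 slides and 3 scan days leave strain, age and slide only partly separable, 1 probe stands for 30 of the 37 genes, and bulk RNA does not give cell numbers.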
